A study of Mus musculus with 10 samples.

Results

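Lysyl oxidases and the collagen-modifying hydroxylases were examined in infrarenal aortic tissue of the porcine pancreatic elastase (PPE) model of abdominal aortic aneurysm (AAA). The group holds 10 genes, taken by gene name from the non-control spots of the arrays: the lysyl oxidase genes Lox, Loxl1, Loxl2, Loxl3 and Loxl4, the lysyl hydroxylase genes Plod1 and Plod2, and the prolyl 4-hydroxylase subunit genes P4ha1, P4ha2 and P4ha3. All 10 were among the 35527 gene names on the array, with 19 probes between them, and all 10 passed the filter on dim probes that left 22520 names to be tested. Male C57BL/6J mice on a normal diet, 10 weeks old, had the infrarenal aorta infused for 5 min at 100 mmHg with saline (sham) or with saline that carried type I PPE at 1.5 U per mL, and the segment was taken 7 days later. Each group comprised 5 arrays with 1 aorta each, so both groups share the ligature, the aortotomy and its repair. On every array the aortic RNA carried the red dye (Cy5) and a universal mouse reference RNA carried the green dye (Cy3). Values below are log2 ratios of aorta over reference. A log2 ratio of 1 probe is not comparable with that of another probe, so only differences between groups are set side by side across genes.

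These enzymes act in sequence on collagen. In the endoplasmic reticulum, prolyl 4-hydroxylase hydroxylates prolines, which stabilizes the triple helix, and lysyl hydroxylases hydroxylate lysines, which changes the kind of crosslink that can form later. Both use iron, ascorbate, oxygen and 2-oxoglutarate. Outside the cell, the lysyl oxidases, which carry copper, oxidize lysines and hydroxylysines of collagen and lysines of elastin to aldehydes, and these aldehydes condense into the crosslinks that give the arterial wall its tensile strength. Mice without Lox die around birth with aortic aneurysms, and chemical inhibitors of the enzymes weaken the aorta.

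With PPE, Lox, Loxl2, Plod2 and P4ha3 rose, and the other 6 members did not pass the test in either direction. Thus each of the families held 1 or 2 members that rose beside members that did not pass. Genes were tested with limma over all 22520 names and called at a Benjamini-Hochberg adjusted p under 0.01. The study used a false discovery rate of 1%. By that rule 4 of the 10 members were called higher, where 13.8% of all names tested were, and 0 of 10 were called lower, where 9.96% of all names were. At an unadjusted p under 0.05 in limma, 6 members were higher and 0 lower, where 24.8% of all names were higher and 18.8% lower. Significance analysis of microarrays (SAM), the test named in the study's methods, also called 6 members higher and 0 lower, where it called 21.3% of all names higher and 15.8% lower. The median log2 fold change of the 10 members was 0.43, against 0.02 over all names tested. The median was 0.35 for the 5 lysyl oxidases, 0.80 for the 2 lysyl hydroxylases and 0.51 for the 3 prolyl 4-hydroxylases. In 5 members (Lox, Loxl2, Plod2, P4ha2 and P4ha3) every PPE array lay above every sham array, which held for 14.9% of all names. The opposite, every PPE array below every sham array, held for 10.5% of all names and for none of the members.

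**Figure D1:**
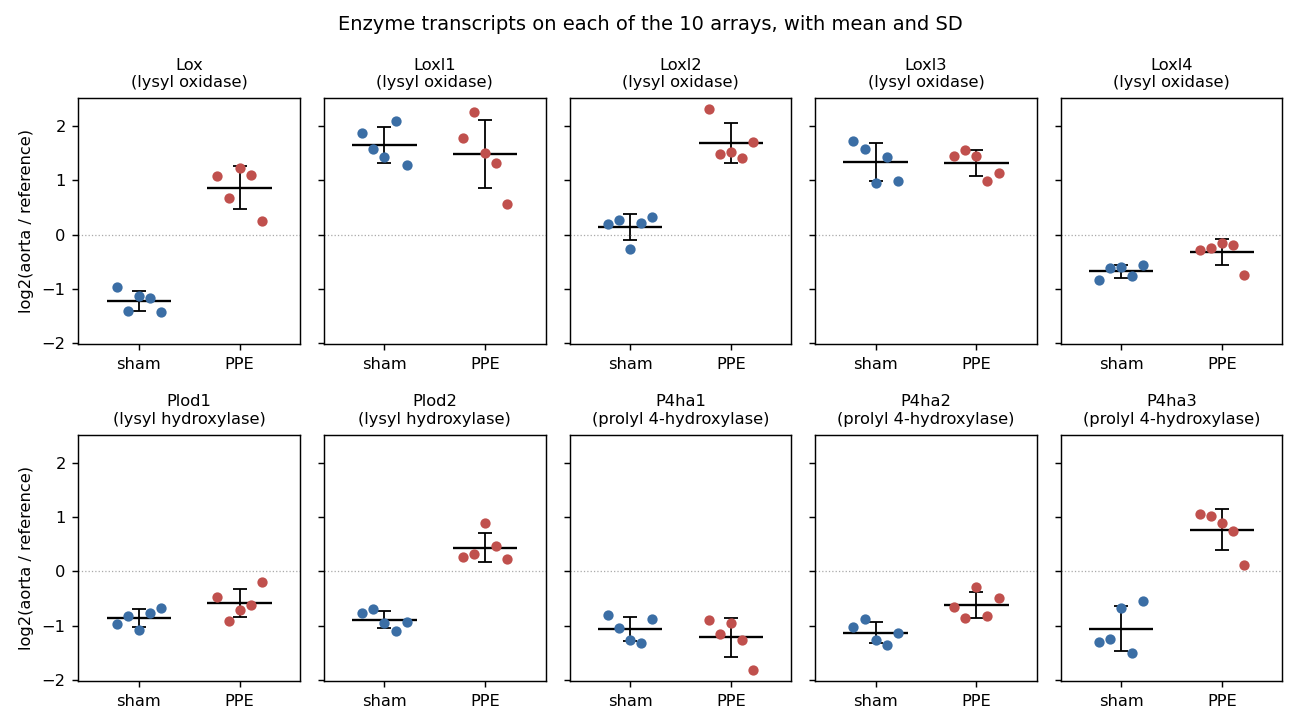
Log2 ratio of aorta over reference for each of the 10 enzymes (y axis) in 5 sham and 5 PPE arrays (points, left to right replicates 1 to 5), with the group mean (line) and SD (bar). The groups are apart for Lox, Loxl2, Plod2, P4ha2 and P4ha3, and overlap for Loxl1, Loxl3, Loxl4, Plod1 and P4ha1.

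Among the crosslinking enzymes, Lox and Loxl2 rose. Lox encodes the founding lysyl oxidase, secreted as a proenzyme that is cut by Bmp1-type proteinases. Its log2 ratio in sham replicates 1 to 5 was -0.97, -1.40, -1.13, -1.17 and -1.41, and in PPE replicates 1 to 5 it was 1.08, 0.67, 1.23, 1.10 and 0.26. At this probe all sham arrays were below the reference and all PPE arrays above it. With no dye swap, the place of this crossing depends on any dye bias of the probe and on the scaling. The group means were -1.22 ± 0.19 (SD, n = 5) in sham and 0.87 ± 0.40 (SD, n = 5) in PPE, a log2 fold change of 2.08 (SE 0.18, 95% confidence interval 1.68 to 2.49, adjusted p = 7.48e-06 in limma), or 4.24-fold. A second Lox probe gave a log2 fold change of 1.48 (SE 0.13), again with groups that did not overlap, and there PPE replicate 2 (-0.12) also lay below the reference. The order of the PPE arrays differed between the Lox probes. PPE replicate 5 was the lowest at the first probe (0.26) and the highest at the second (0.48).

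Loxl2, a family member with scavenger receptor domains that also crosslinks collagen IV of basement membranes, was the other that rose. In sham replicates 1 to 5 its log2 ratio was 0.20, 0.27, -0.27, 0.21 and 0.33, and in PPE replicates 1 to 5 it was 2.31, 1.48, 1.51, 1.41 and 1.71. The lowest PPE array stood 1.08 above the highest sham array on the log2 scale. The log2 fold change was 1.54 (SE 0.18, adjusted p = 6.36e-05 in limma), or 2.90-fold. The array carried 4 probes under the name Loxl2. The other 2 probes at the Loxl2 locus rose by 0.995 (SE 0.14) and 1.10 (SE 0.19), both with groups that did not overlap. The remaining probe lies on chromosome 2, was designed on a predicted transcript, and had a log2 fold change of 0.01 (SE 0.11). It was not taken as a measure of Loxl2.

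Loxl1 is the lysyl oxidase best known for the upkeep of elastic fibres, which it reaches through fibulin-5. It did not pass the test. Its log2 ratio was 1.87, 1.59, 1.43, 2.09 and 1.28 in sham replicates 1 to 5 and 1.78, 2.25, 1.50, 1.33 and 0.56 in PPE replicates 1 to 5. The groups overlapped over most of their range, and PPE replicate 5 lay lowest. The log2 fold change was -0.17 (SE 0.28, 95% confidence interval -0.78 to 0.44, adjusted p = 0.693 in limma), and a second probe gave -0.30 (SE 0.24).

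Both Loxl1 probes and 2 of the 3 probes at the Loxl2 locus are shown because these paralogs encode related catalytic domains and gave different changes. The Loxl2 probe that stands for the gene, with the value of 1.54, has a stop codon in every frame and is not printed. The 4 printed are 60-base probes from the array design, on build mm9, and each can be read in at least 1 frame with no stop codon. In the first, capitals mark the longest run shared with a Lox probe, of 9 bases. They lie at chr9:58138570-58138629 (minus strand) and chr9:58145451-58145510 (minus strand) for Loxl1, and at chr14:70092141-70092200 (plus strand) and chr14:70090017-70090076 (plus strand) for Loxl2.
Loxl1 A_51_P304239: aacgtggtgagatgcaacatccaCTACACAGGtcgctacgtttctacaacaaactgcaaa
Loxl1 A_55_P2096226: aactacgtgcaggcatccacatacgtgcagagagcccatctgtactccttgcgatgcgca
Loxl2 A_51_P275949: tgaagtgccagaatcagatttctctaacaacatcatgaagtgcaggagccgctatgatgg
Loxl2 A_55_P2131348: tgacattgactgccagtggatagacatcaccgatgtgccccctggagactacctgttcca
Over the 159 pairs of probes from different members, no run longer than those 9 bases was shared. The most alike pair, the same Lox and Loxl1 probes, matched at 31 of 60 bases in the best ungapped alignment, and these probes moved differently, by 1.48 for Lox and -0.17 for Loxl1 on the log2 scale. The Loxl1 and Loxl2 probes printed here differed likewise, since the Loxl1 probes gave -0.17 and -0.30 and the Loxl2 probes 0.995 and 1.10.

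Loxl3 and Loxl4, which share the scavenger receptor domains of Loxl2, moved less. Loxl3, needed for the collagen of the palate and spine, had log2 ratios of 1.72, 1.58, 0.96, 1.43 and 0.99 in sham and 1.45, 1.55, 1.45, 0.99 and 1.14 in PPE, in replicate order. The ranges were nearly the same, and the log2 fold change was -0.02 (SE 0.18, 95% confidence interval -0.41 to 0.37). Loxl4 had log2 ratios of -0.83, -0.61, -0.59, -0.76 and -0.56 in sham and -0.27, -0.23, -0.16, -0.20 and -0.75 in PPE. Of the PPE arrays, 4 lay above all sham arrays and PPE replicate 5 lay within the sham range. For Loxl4 the log2 fold change was 0.35 (SE 0.13, adjusted p = 0.0542 in limma), and its second probe gave 0.46 (SE 0.16). Without PPE replicate 5 the value was 0.45 (adjusted p = 0.00373 in limma). Loxl4 also passed in SAM (q = 0.00745). With the slide as a block it was 0.48 (adjusted p = 0.00632 in limma). That fit draws only on slides 1 and 2, so it also leaves out PPE replicate 5, which is alone on its slide. The call for Loxl4 thus depends on 1 array at this probe and on the test. At the second Loxl4 probe PPE replicate 5 was instead the highest PPE array (-0.21).

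The lysyl hydroxylases parted in the same way. Plod2 encodes lysyl hydroxylase 2, which acts on the telopeptide lysines that become stable, hydroxylysine-derived crosslinks and is known from fibrosis. Its log2 ratio was -0.77, -0.69, -0.95, -1.10 and -0.93 in sham replicates 1 to 5 and 0.27, 0.32, 0.89, 0.47 and 0.24 in PPE replicates 1 to 5. Every PPE array was above the reference and every sham array below it, a crossing that also depends on dye bias and scaling. From its single probe, the log2 fold change was 1.32 (SE 0.14, adjusted p = 3.06e-05 in limma), or 2.50-fold. Plod1, lysyl hydroxylase 1, which acts on lysines of the triple helix, had log2 ratios of -0.97, -0.82, -1.08, -0.77 and -0.67 in sham and -0.47, -0.90, -0.71, -0.63 and -0.20 in PPE. These groups overlapped. For Plod1 the log2 fold change was 0.28 (SE 0.14, adjusted p = 0.152 in limma), and its second probe gave -0.02 (SE 0.16).

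Of the prolyl 4-hydroxylase alpha subunits, which carry the catalytic site and pair with the disulphide isomerase P4hb, P4ha3 rose. Its log2 ratio was -1.31, -1.25, -0.67, -1.49 and -0.54 in sham and 1.06, 1.03, 0.90, 0.75 and 0.12 in PPE, in replicate order. The groups were apart by 0.66 between the highest sham and the lowest PPE array. The log2 fold change was 1.82 (SE 0.23, adjusted p = 9.21e-05 in limma), or 3.53-fold. The probe was well above background on 3 of 5 sham and 5 of 5 PPE arrays, and the size of the change depended on the handling of dim signal. It was 2.28 with a normexp offset of 16, 3.37 with the scanner's LogRatio, and 0.92 at the second P4ha3 probe, which was above background on all 10 arrays. The call held in each of these settings.

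P4ha2, with a probe at which the groups did not overlap, fell short of the threshold. The log2 ratios were -1.02, -0.87, -1.26, -1.35 and -1.13 in sham and -0.65, -0.86, -0.28, -0.82 and -0.48 in PPE. The highest sham and the lowest PPE array differed by 0.01. The log2 fold change was 0.51 (SE 0.14, adjusted p = 0.0144 in limma), which is past a threshold of 0.05, where 20.2% of all names were called higher, and in SAM its q was 0.00169. With the slide as a block, a fit that draws only on slides 1 and 2, the log2 fold change was 0.41 (adjusted p = 0.0983 in limma). With scaling between arrays it was 0.69 (adjusted p = 0.0558 in limma). With each array centred on its median it was 1.18 (adjusted p = 0.218 in limma). P4ha1, the most widely expressed subunit, had log2 ratios of -0.80, -1.05, -1.26, -1.32 and -0.87 in sham and -0.90, -1.16, -0.95, -1.26 and -1.81 in PPE. Its groups overlapped, with a log2 fold change of -0.16 (SE 0.18, 95% confidence interval -0.55 to 0.24) and -0.17 (SE 0.17) at a second probe.

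**Figure D2:**
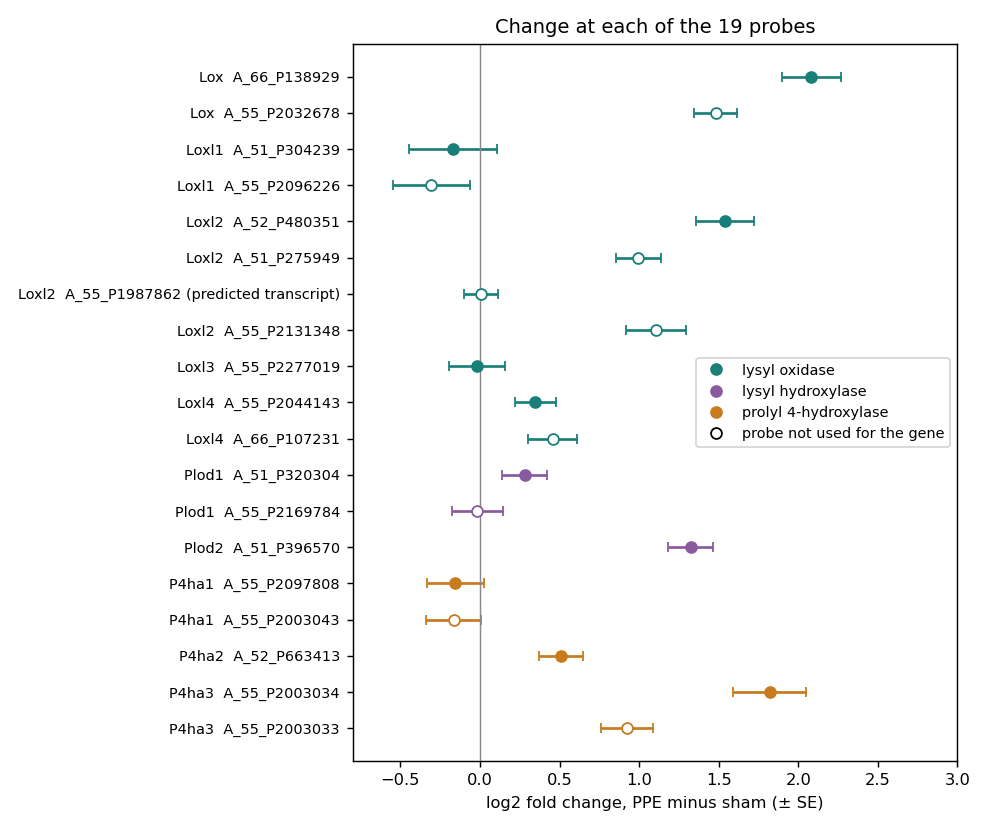
Log2 fold change, PPE minus sham, with SE (x axis) at each of the 19 probes (y axis), coloured by enzyme family. Filled points are the probes that stand for their gene. Both Lox probes, the 3 probes at the Loxl2 locus, the Plod2 probe and both P4ha3 probes lie at 0.92 or above, and every other probe lies at 0.51 or below.

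The P4ha3 probes are shown because their changes differ in size. They are 60 bases long, on build mm9, at chr7:107463120-107463179 (plus strand) and chr7:107467431-107467490 (plus strand), so both report the same strand of the same locus. The second can be read in 2 frames with no earlier stop codon, and capitals mark the TGA that ends 1 of them. Its place relative to the coding sequence was not read from an annotation.
P4ha3 A_55_P2003033: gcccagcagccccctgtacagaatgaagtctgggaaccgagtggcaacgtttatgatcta
P4ha3 A_55_P2003034: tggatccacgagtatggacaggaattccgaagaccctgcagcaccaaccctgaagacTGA
The probe without capitals gave 0.92 (SE 0.16) and the probe that ends in TGA gave 1.82 (SE 0.23).

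The RefSeq promoter table (build GRCm38.p6) held 5 of the 10 members, namely Loxl4, Plod1, P4ha1, P4ha2 and P4ha3. The 250 bases before the start are shown for the prolyl 4-hydroxylase subunits, whose changes ranged from -0.16 to 1.82. They were searched for ACGTG, a core of the sites that hypoxia-inducible factors bind, on both strands (CACGT on the other), and matches are in capitals. The windows are chr10:59323046-59323295 (plus strand), chr11:54100674-54100923 (plus strand) and chr7:100285270-100285519 (plus strand).
P4ha1: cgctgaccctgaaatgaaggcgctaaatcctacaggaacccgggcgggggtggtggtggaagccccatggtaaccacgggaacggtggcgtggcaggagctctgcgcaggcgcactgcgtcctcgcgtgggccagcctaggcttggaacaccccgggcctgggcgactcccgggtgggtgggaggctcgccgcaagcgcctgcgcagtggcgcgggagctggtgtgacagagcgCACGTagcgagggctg
P4ha2: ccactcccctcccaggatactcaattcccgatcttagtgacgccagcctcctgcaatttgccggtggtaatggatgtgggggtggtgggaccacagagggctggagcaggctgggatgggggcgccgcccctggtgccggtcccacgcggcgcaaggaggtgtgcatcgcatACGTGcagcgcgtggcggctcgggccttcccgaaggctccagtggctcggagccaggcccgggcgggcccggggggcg
P4ha3: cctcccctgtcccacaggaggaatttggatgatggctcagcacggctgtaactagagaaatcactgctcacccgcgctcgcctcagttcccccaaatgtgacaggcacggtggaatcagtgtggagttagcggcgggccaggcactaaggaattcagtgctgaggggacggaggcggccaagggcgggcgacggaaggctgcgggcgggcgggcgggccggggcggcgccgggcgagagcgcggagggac
P4ha1 and P4ha2 each held 1 match, and the windows of P4ha3, Loxl4 and Plod1 held no match. Of all 32851 promoters in the table, 16.6% held the motif in the same window. The match is a run of letters and was not tested as a site. The other form of the core, GCGTG, was not counted, so no match here means none of the ACGTG form.

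Whether members of a family changed by different amounts was tested on the per-array difference of their log2 ratios, over all 14 pairs within the families. An exact two-sided permutation test over the 252 relabellings of the arrays was used, whose smallest p is 0.00794, with Benjamini-Hochberg adjustment over the 14 pairs and a threshold of 0.05. The change differed in 10 of the 14 pairs (adjusted p = 0.0111 in each by the exact permutation test). In each of these the unadjusted p was the smallest that the test can give. The test and its SE cover the spread between arrays at 1 probe per gene. They do not cover differences between probes of a gene, such as 1.82 and 0.92 for P4ha3. Loxl3, Plod2 and P4ha2 had 1 probe each. In the lysyl oxidase family, Lox and Loxl2 each rose more than Loxl1, Loxl3 and Loxl4. Lox exceeded Loxl1 by 2.25 (SE 0.28) and Loxl2 exceeded Loxl1 by 1.70 (SE 0.36) on the log2 scale. Plod2 exceeded Plod1 by 1.04 (SE 0.23). At the probes that stand for them, all 3 prolyl 4-hydroxylase subunits differed from each other, with P4ha3 above P4ha2 by 1.31 (SE 0.31) and P4ha2 above P4ha1 by 0.66 (SE 0.21). The first of these rests on the P4ha3 probe that was dim in sham. With the P4ha3 probe above background on all arrays it was 0.42 (SE 0.20, adjusted p = 0.122 by the exact permutation test), and with median centring 0.74 (SE 0.41, adjusted p = 0.182 by the exact permutation test), so that P4ha2 and P4ha3 no longer differed beyond the threshold. With the second brightest probe of each gene, a setting chosen after seeing the data, Loxl2 above Loxl4 (0.65, SE 0.31, adjusted p = 0.0889 by the exact permutation test) did not pass either. The difference between Lox and Loxl2 was 0.55 (95% confidence interval -0.12 to 1.21, adjusted p = 0.139 by the exact permutation test). In this setting the data leave room for equal changes and for a larger rise of Lox. With LogRatio or series matrix values Lox exceeded Loxl2 by 0.71 (SE 0.27, adjusted p = 0.0404 each by the exact permutation test). With the mean of probes, which includes the chromosome 2 probe, it was 0.87 (SE 0.14, adjusted p = 0.0139 by the exact permutation test). The difference passed in no other setting. No difference passed the test among Loxl1, Loxl3 and Loxl4 in the main setting. With scaling between arrays Loxl4 exceeded Loxl1 by 0.82 (SE 0.32, adjusted p = 0.0202 by the exact permutation test). With LogRatio or series matrix values it did so by 0.60 (SE 0.25, adjusted p = 0.0463 each by the exact permutation test). This pair passed in no other setting.

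Within a group, no array was the extreme for all members. At the probes that stand for the genes, PPE replicate 5 was the lowest PPE array for 6 of the 10 members (Lox, Loxl1, Loxl4, Plod2, P4ha1 and P4ha3) and the highest for Plod1. At the second probes it was again the lowest for P4ha3 (0.21). There it was the highest for Lox (0.48) and Loxl4 (-0.21), and neither lowest nor highest for Loxl1 and P4ha1. On that array 45.8% of spots stood clear of background in red, the lowest share among the PPE arrays, which reached 65.8%. Among sham arrays, at the probes that stand for the genes, sham replicate 4 was lowest for 4 members and sham replicate 5 highest for 4. On sham replicate 5 the share clear of background was 37.6%, the lowest of the 10 arrays, so a low share did not always go with low member values. The other tested gene names most like Lox over the 10 arrays were 4933426M11Rik (Pearson's r 0.994), Map4k4 (0.991), Tmem181a (0.991), Fam126a (0.989) and Syngr2 (0.989). Most of such a correlation over 10 arrays in 2 groups is set by the difference between the groups. Their own log2 fold changes ran from 0.64 for Fam126a to 1.37 for Syngr2, against 2.08 for Lox.

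Slides did not divide the groups evenly. Slide 1 held 1 sham and 2 PPE arrays, slide 2 held 2 sham and 2 PPE arrays, and each other slide held 1 array used here. Within slide 1 and slide 2, the log2 difference was 1.84 and 2.43 for Lox, 1.70 and 1.46 for Loxl2, 1.06 and 1.50 for Plod2, and 2.35 and 1.78 for P4ha3. The members that rose thus had like values within each slide. Within the slides P4ha2 gave 0.26 and 0.52, Loxl4 0.57 and 0.42, and Plod1 0.29 and 0.29. For Loxl1 (0.15 and -0.10) and P4ha1 (-0.23 and 0.05) the sign differed between the slides, and Loxl3 gave -0.22 and -0.05. The arrays of slide 1 were scanned on another day than the rest, so slide 1 and that scan day cannot be told apart.

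The signs of the members near 0 depended on the scaling. With each array centred on its median in place of loess, the median of all names moved to 0.41, and the log2 fold changes were 0.55 for Loxl1, 0.55 for Loxl3 and 0.47 for P4ha1. Relative to that median they were 0.15, 0.15 and 0.06. Plod1 ranged from -0.02, at its second probe, to 0.80 with median centring. Lox, Loxl2, Plod2 and P4ha3 stood 2.19, 1.70, 1.48 and 1.51 above it. Their values were 2.60, 2.11, 1.89 and 1.91 before that subtraction, and the adjusted p of limma was 0.0321, 0.0604, 0.0562 and 0.0269, so none of them passed 0.01 with this scaling.

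**Figure D3:**
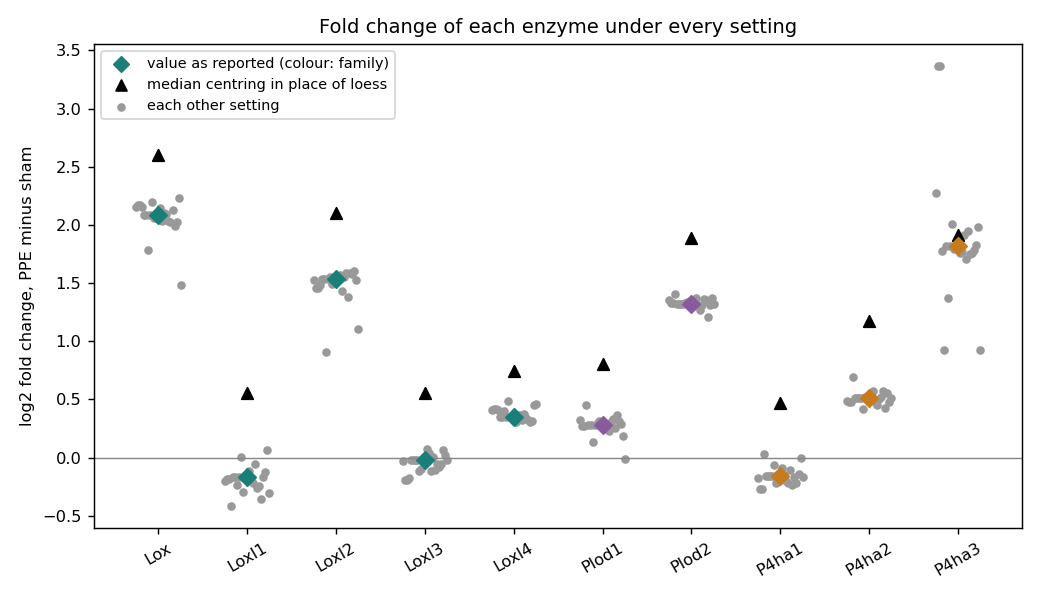
Log2 fold change, PPE minus sham (y axis), of each enzyme (x axis) as reported (diamonds), with median centring in place of loess (triangles) and under each of the 23 other settings tried (grey points). Lox, Loxl2, Plod2 and P4ha3 lie above 0.9 under every setting, and Loxl1, Loxl3, P4ha1 and Plod1 lie on both sides of 0.

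Around the members, 20 further genes that hydroxylate, glycosylate, fold or export collagen were listed, of which 19 were tested. Of these, 6 rose and 1 fell, with a median log2 fold change of 0.12. For this and the lists below, the shares over all names tested were 13.8% higher and 9.96% lower. Serpinh1, the collagen chaperone Hsp47, rose by 1.09 (SE 0.20), and Glt25d1, now Colgalt1, which adds galactose to hydroxylysine, rose by 0.90 (SE 0.12). Plod3, the remaining lysyl hydroxylase, rose by 0.62 (SE 0.14), so 2 of the 3 lysyl hydroxylase genes rose. P4hb, the partner of the P4ha subunits, rose by 0.54 (SE 0.14). Creb3l1, a transcription factor of the endoplasmic reticulum that drives collagen genes, rose by 0.68 (SE 0.15). Leprel1, now P3h2, a prolyl 3-hydroxylase known for its action on collagen IV, fell by 1.07 on the log2 scale (SE 0.26). Its probe was well above background on 5 sham arrays but only 3 PPE arrays. The change ran from -0.81 with median centring to -3.08 with the scanner's LogRatio.

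The collagens that these enzymes act on split by type. Of 11 fibril-forming collagen genes 9 rose, with a median of 1.86, but 3 of the 9 (Col2a1, Col11a1 and Col24a1) were well above background on fewer than 3 of the 5 sham arrays and so entered the test mainly through the PPE arrays, where they were high. Among the other 8 genes 6 rose (median 1.66), with Col5a3 (2.10), Col1a1 (2.04), Col3a1 (1.95) and Col5a1 (1.86) the highest, on the log2 scale. The chains of types I, III and V make up the fibrils of the arterial wall. Of the 6 collagen IV genes 4 fell, with a median of -1.64. Col4a3 was above background on fewer than 3 PPE arrays, and without it 3 of 5 fell. Col4a6 changed by -2.63, Col4a5 by -1.94 and Col4a4 by -1.56, whereas Col4a1 (0.15) and Col4a2 (-0.11), the main chains of most basement membranes, did not pass the test.

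The elastic fibre list, with elastin and the proteins that assemble it, had 8 of 17 genes higher and 3 lower, with a median of 0.72. Eln, elastin itself, had a log2 fold change of -0.17 and did not pass. Fbln5, which brings Loxl1 to elastin, changed by -1.28 (SE 0.23), and Ltbp4, another assembly protein, by -1.69 (SE 0.19), beside Ltbp1 at -2.40. Efemp2, fibulin-4, which binds Lox to elastic fibres, rose by 0.72. Fbn1, the main microfibril protein, rose by 1.35 (SE 0.24), Ltbp2 by 2.07, Emilin2 by 1.65 and Fbln2 by 1.45.

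Genes that process procollagen or make other crosslinks numbered 14 tested of 18 listed, of which 4 rose and 1 fell (median 0.17), or 3 and 1 of 13 without Tgm1, which was dim in sham. Bmp1, the proteinase that cuts both the procollagen C-propeptide and pro-Lox, rose by 0.93 (SE 0.18). Pxdn, a peroxidase that forms the sulfilimine crosslink of collagen IV, rose by 0.60 (SE 0.14). Pcolce2, an enhancer of C-propeptide cleavage, fell by 2.15 on the log2 scale (SE 0.18). The supply of copper, ascorbate and iron was covered by 10 tested genes of 13 listed, of which 5 rose and 1 fell (median 0.60). Atp7a, the pump that loads copper into secreted enzymes such as Lox, rose by 0.95 (SE 0.21), and Atox1, which hands copper to it, by 0.70 (SE 0.15). The copper carrier Slc31a2 rose by 0.69 and the zinc and iron carrier Slc39a14 by 1.38 (SE 0.14). The ascorbate carrier Slc23a2 rose by 0.64, and Slc23a3, a relative of the ascorbate carriers, changed by -0.75.

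Lox, Loxl2, Plod2, P4ha1 and P4ha2 are known targets of hypoxia-inducible factors, and Lox and Plod2 respond to TGF-beta. Of 19 other genes listed as hypoxia-inducible, among them the factor genes Hif1a and Epas1, 2 rose and 5 fell (median -0.07). Pfkfb4, a regulator of glycolysis, rose by 2.07 (SE 0.12), and Hif1a rose by 1.58 (SE 0.27). Bnip3 (-1.58), Adm (-1.05), Egln1 (-0.96) and Epas1 (-0.90) were lower. Of 12 TGF-beta ligands, receptors and early targets 2 rose and 2 fell (median -0.26). Tgfb1 rose by 1.41 (SE 0.14) and Tgif1 by 1.33, and Tgfb2 and Smad7 changed by -1.20 and -0.83. In both lists members moved in either direction, and 13.8% of all names tested were called higher and 9.96% lower. At an unadjusted p under 0.05 in limma, 4 hypoxia genes were higher and 7 lower. By that rule 3 TGF-beta genes were higher and 6 lower, where 24.8% of all names were higher and 18.8% lower. Among the genes called in these lists, none changed sign with median centring, with scaling between arrays, or with the LogRatio or series matrix values in place of loess. Medians near 0 did. That of the hypoxia list was 0.77 with median centring (0.37 above the median of all names there) and 0.23 with scaling between arrays, that of the TGF-beta list was 0.37 with median centring (-0.04 relative to all names), and that of the procollagen processing list was -0.15 with scaling between arrays.

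**Figure D4:**
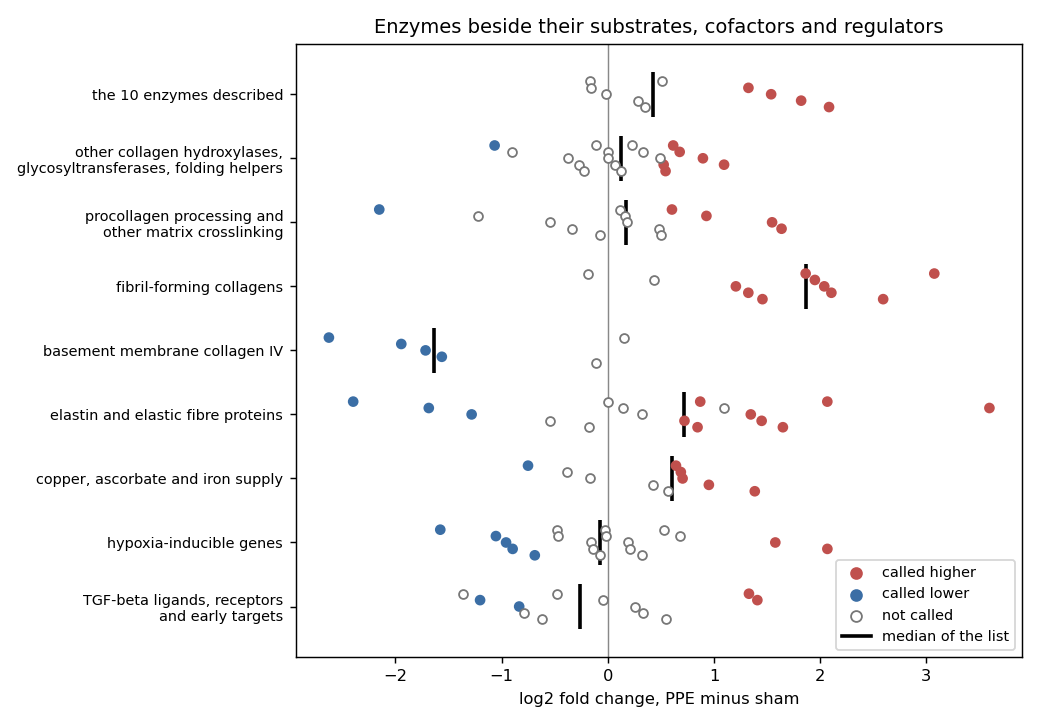
Log2 fold change, PPE minus sham (x axis), of each tested gene in the 10 enzymes described and in 8 lists of related genes (y axis). Filled points passed the test (red higher, blue lower), open points did not, and the bar is the median of the list. Fibril-forming collagens lie mostly above 1 and collagen IV genes mostly below -1, and the enzymes themselves split between points near 0 and points above 1.

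Marker RNA of several cell types moved with the groups. Fewer cells of a type and less RNA per cell cannot be told apart in whole tissue. Of 12 smooth muscle markers 10 were lower with PPE, and the mean log2 ratio of the list ran from 3.29 to 4.49 over sham arrays and from 1.70 to 2.84 over PPE arrays. Of 12 macrophage markers 10 were higher (0.81 to 1.38 in sham, 2.89 to 3.98 in PPE), as were 8 of 9 neutrophil markers (0.45 to 0.55 in sham, 2.86 to 4.07 in PPE) and 6 of 9 T cell markers (-1.15 to 0.10 in sham, 0.76 to 1.84 in PPE). Of the neutrophil markers, Cxcr2, Mmp8 and Ngp were above background on fewer than 3 sham arrays and so entered mainly through PPE, and without them 5 of 6 were higher (0.67 to 0.81 in sham, 3.34 to 4.42 in PPE). Of 10 fibroblast markers 3 were higher (Thy1 by 1.38, Fap by 1.11 and Pdgfra by 0.64) and 7 were not called, with list means of 2.34 to 3.02 in sham and 2.65 to 3.58 in PPE. At an unadjusted p under 0.05 in limma 5 of them were higher and 1 lower, where 24.8% of all names were higher and 18.8% lower. The median of the fibroblast list was 0.39, and -0.01 with scaling between arrays. Of 10 adipocyte markers 4 were lower (4.27 to 5.33 in sham, 3.12 to 4.54 in PPE). In limma none of 10 endothelial, 6 B cell and 9 skeletal muscle markers were called, where 2 endothelial markers and none of the others had an unadjusted p under 0.05 and SAM called 1 endothelial marker. The part of these shifts in the changes of the enzymes was not tested.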

How the data were processed

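Infrarenal aortas of 5 sham and 5 PPE mice were profiled on 2-colour Agilent arrays, with 500 ng of RNA in red against a universal reference in green and no dye swap. Where a dye biases a probe equally on all arrays the bias cancels between groups, otherwise it does not. Groups and replicate numbers follow the labels. Per the study's methods, the authors left out arrays after quality control, and which these were is not given in the sources used here.

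Spots were extracted by the authors in Agilent Feature Extraction (version 10.7.3.1, build mm9). Spot signals were deposited as linear intensity, and LogRatio was deposited as log10 of the red to green ratio. The authors' series matrix holds log2 ratios, equal to log2 of processed red over green on 100% of spots within 0.0001, with scale and centring otherwise unstated. The number of arrays limits the precision.

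The analysis used limma 3.58.1 in R 4.3.3. Local background was removed by normexp (offset 50, which understates changes of dim probes), arrays were normalized by loess with no step between arrays, and control spots and 176 to 331 outlier spots per array were left out. No spot was saturated. Replicate spots were averaged, probes entered the test when red was well above background on 5 or more of the 10 arrays, and the brightest tested probe stood for its gene name. Groups were compared with lmFit and eBayes, unpaired and two-sided, over all 22520 names. SAM was written anew with 100 drawn relabellings. The scripts were tested on simulated data. The members, gene lists and tests were chosen with earlier results of these data known. Named genes are all members with their probes, and from each list at most 4 in each direction with the largest change among those called and above background on all 10 arrays. P4hb, Eln, Efemp2, Leprel1, Slc23a2, Col4a1 and Col4a2 were added after their values were seen, for their known link to a member or its cofactor. Alternatives covered the background offset, the scaling, the signal column, the filter, the probe, blocks for slide, scan day and replicate, the test, the threshold, and leaving out each array. Counts without list genes above background on fewer than 3 of 5 arrays of a group were added after seeing the data.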

Additional observations from a re-analysis of the deposited data

Results flagged for a closer look

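Over the 38 groups of 5 arrays (19 probes in sham and PPE), 2 held an array whose gap to its nearest neighbour was more than 0.71 of the group's range, the limit of Dixon's test, and chance gives about 1 in 20 such groups. At the Loxl2 probe A_52_P480351, sham replicate 3 was at -0.27, with the next sham array at 0.20 (ratio 0.779). At the Loxl4 probe A_55_P2044143, PPE replicate 5 was at -0.75, with the next PPE array at -0.27 (ratio 0.806). The change of Loxl4 was 0.35 with this array and 0.45 without it. At the second Loxl4 probe the same array was the highest of the PPE arrays (-0.21).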

How the results depend on the processing

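The number of members called higher was 4 and remained from 4 to 5 when each array was left out in turn, with Loxl4 added without PPE replicate 5. It was 0 with median centring of each array, where limma called 408 names higher and 8 lower in all, so that 98.1% of calls were higher against 58.1% of 5359 calls with loess. The cause was not tested. SAM called 8343 names, 4795 higher and 3548 lower, with 6 members higher (P4ha2 and Loxl4 added). The number of members called lower was 0 under each of these settings and from 0 to 0 when each array was left out. Lox, Loxl2, Plod2 and P4ha3 passed in 23 of 24 alternative settings each, all but median centring. P4ha3 ranged from 0.92 to 3.37, Loxl2 from 0.91 (mean of its probes, which includes the one on chromosome 2) to 2.11, and Lox from 1.48 to 2.60. The use of the second brightest probe was chosen after seeing the data. The labels share replicate numbers across groups. The deviations of same-numbered arrays correlated at 0.29, -0.30, 0.16, -0.14 and 0.52, and 3 of 10 arrays correlated best with their own number, so the number was not taken to pair the arrays. The arrays numbered 1, and those numbered 3, also share a slide. With the replicate number as a block 4 members were called higher. The number of within-family pairs whose change differed was 10, 10 when each array was left out in turn, and from 8 to 12 in the settings that can reach the threshold (9 with median centring and with probes above background on all arrays, 8 with the second brightest probe). It was 0 with relabelling within replicate numbers as a block (32 relabellings, smallest exact p = 0.0625) and 0 with relabelling within slides (18 relabellings, smallest exact p = 0.0556), where the threshold cannot be reached.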
